A study of Mus musculus with 12 samples.

Results

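Tnnc1 encodes troponin C of slow skeletal and cardiac muscle, and its transcript was measured in C2C12 cells that differentiated with or without 4-octyl itaconate. The gene was taken by its symbol, as the row whose gene name is Tnnc1 (ENSMUSG00000091898), which is 1 of the 27942 genes analysed. C2C12 is a line of mouse myoblasts, mononucleated muscle precursors that stop dividing and fuse into multinucleated myotubes when serum is lowered. 4-octyl itaconate (OI) is an ester of itaconate, a metabolite that activated macrophages make, and it crosses the cell membrane. Cells of both groups reached 80% density in 10% fetal bovine serum and were then switched to 2% horse serum for 7 days. The OI group received 25 µmol/L OI in that medium, and the control group, labelled untreated, did not. Each group had 3 RNA-seq libraries. The title of the series speaks of OI repressing myogenic differentiation, and the comparison asks what the transcript of a contractile protein did under it. The labels do not say whether the 3 libraries of a group came from separate cultures, so the spread behind the p-values is that of these libraries and could be technical. Another 6 samples belong to the series and were not analysed here.

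Troponin C is the calcium sensor of the sarcomere. It sits on the thin filament with troponin I, which holds back the interaction of actin and myosin, and troponin T, which anchors the complex to tropomyosin. When calcium enters the cytoplasm and binds troponin C, the block by troponin I is lifted and the muscle contracts. Slow skeletal fibres and the heart use the product of Tnnc1, while fast skeletal fibres use that of its paralog Tnnc2. Developing skeletal muscle also makes the slow form, and differentiating muscle cells in culture switch the gene on.

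In the GRCm38 annotation (GENCODE M21) Tnnc1 lies on the plus strand of chromosome 14, from 31208312 to 31211729, a span of 3418 bases. It has 3 annotated transcripts. The coding transcript has 6 exons, 721 bases in all and a coding part of 483 bases. The decay form is annotated as a target of nonsense-mediated decay and has 584 bases. The retained-intron form has 660 bases and keeps 320 bases of an intron, from 31210679 to 31210998. The exons of the 3 transcripts cover 1041 bases together, and 340 bases lie in all 3. The whole gene lies inside Nisch, which runs on the minus strand from 31170930 to 31216946, but no exon of another chromosome 14 gene overlaps an exon of Tnnc1. The next gene downstream, Sema3g, starts 9548 bases from the start of Tnnc1.

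**Figure D1:**
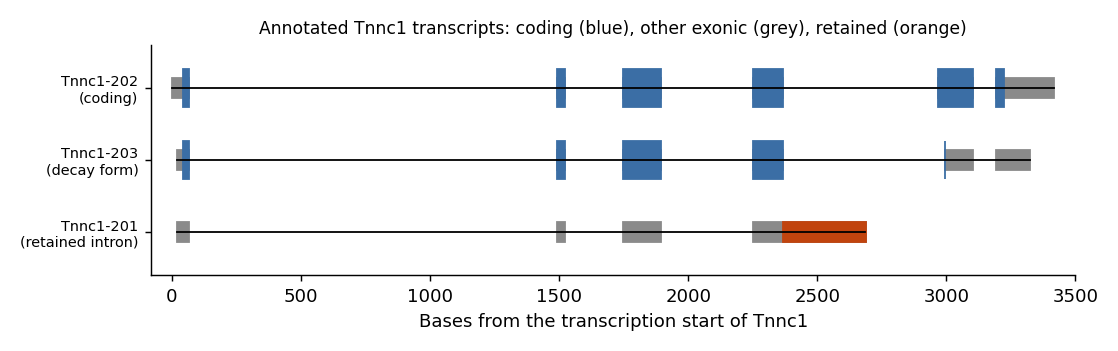
Exons of the 3 annotated Tnnc1 transcripts against the distance in bases from the transcription start; tall blue blocks are coding, low grey blocks are other exonic sequence and the orange block is the retained intron sequence. The retained stretch of 320 bases belongs to the bottom transcript only, and the top one, of 721 bases, codes for the protein.

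The bases just upstream are shown because they are where transcription of the measured RNA begins, and because regulatory motifs of muscle genes can be read in them. In mice, control regions of this gene have been described both in the upstream sequence and in the first intron. The RefSeq promoter table (GRCm38.p6) gives this stretch on the plus strand, chr14:31208062-31208311, 5′ to 3′, ending at the base before the start. Capitals mark, from left to right, a pair of E-boxes (CANNTG, the motif bound by MyoD and myogenin), an MCAT motif read on the minus strand (CATTCC, bound by TEAD factors) and a TATA motif (TATAA).
Tnnc1 upstream: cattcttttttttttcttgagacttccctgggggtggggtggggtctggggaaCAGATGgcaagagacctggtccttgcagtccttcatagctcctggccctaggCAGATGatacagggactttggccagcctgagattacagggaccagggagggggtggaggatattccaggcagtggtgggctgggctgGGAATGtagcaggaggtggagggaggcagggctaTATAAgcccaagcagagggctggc

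The E-boxes begin at -197 and -145 relative to the start, the MCAT motif at -58 and the TATA motif at -24. Motifs were searched on both strands in the 250 bases upstream of each start, in 32851 distinct windows of the same table. An E-box occurred in 66.2% of these windows, the MCAT motif in 12.6% and the TATA motif in 22.8%. CCACCC, a motif of CACC-box factors, matched at -219, -214 and -95, with the match at -219 sharing 1 base with the next, and occurred in 28.1% of windows. The GATA motif AGATAA (9.99% of windows), the antioxidant response element TGACNNNGC that NRF2 binds (10.2%), the MEF2 motif (2.92%) and the CArG box (1.47%) had no match in the Tnnc1 window. A match describes letters and not a bound site, and no match says only that these letters are not in this window.

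With OI, Tnnc1 stood at 18.4% of its control level on day 7. A fall here means a lower value with OI than in control, since no earlier day was analysed. FPKM scales the fragments counted in a gene to its length and to the size of the library. The OI libraries had 24.7, 23.0 and 21.9 FPKM of Tnnc1, against 140, 110 and 128 FPKM in the control libraries. The groups did not overlap, and the lowest control library stood 4.47 times above the highest OI library. The mean was 23.2 ± 1.39 FPKM with OI and 126 ± 15.1 FPKM in control (SD, n = 3 each). The log2 fold change on the log2(FPKM + 1) scale was -2.39 with an SE of 0.11 and a 95% interval of -2.64 to -2.13 (limma, adjusted p = 0.000188). That is a 5.23-fold lower value with OI on the FPKM + 1 scale, with an interval of 4.38 to 6.25. The two-sided exact permutation test over the 6 libraries gave p = 0.1, the smallest that 3 against 3 can give. In RNA from bulk cultures, fewer cells that make the transcript and less of it per cell cannot be told apart.

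**Figure D2:**
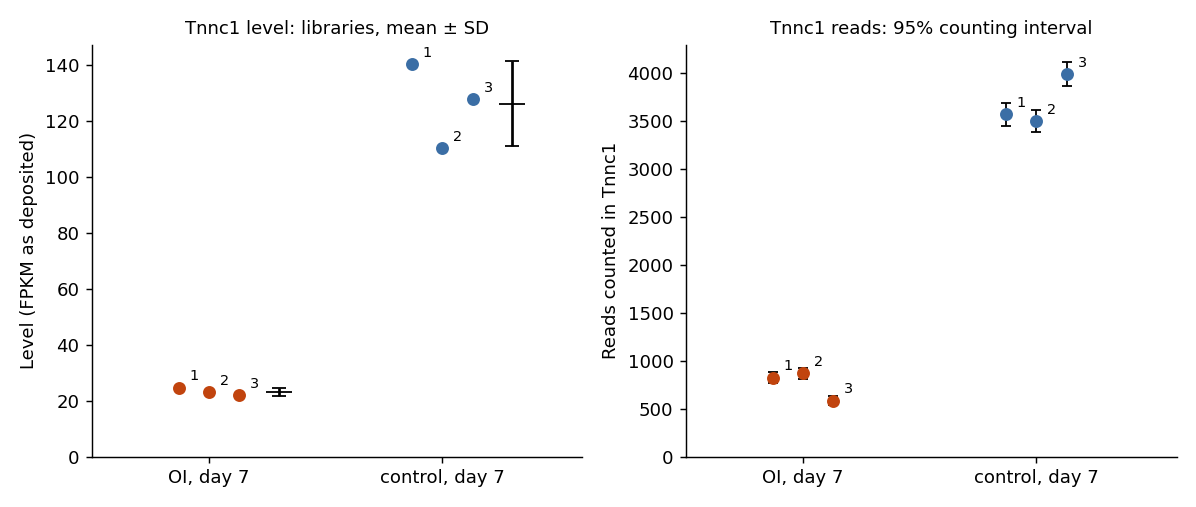
Left, the Tnnc1 level in FPKM of each library, with the mean and SD of each group beside its points; right, the reads counted in Tnnc1 with their exact 95% Poisson intervals. Numbers beside points are replicate numbers. The 3 OI libraries lie between 21.9 and 24.7 FPKM, below the 110 to 140 FPKM of the 3 control libraries.

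The fall rests on 586 or more reads in every library, from totals of 25684000 to 36274000 reads in OI libraries and 24441000 to 30522000 in control libraries. FPKM times length times library size came out as whole numbers of reads, although fragments would give the same values. The OI libraries held 825, 870 and 586 reads of Tnnc1, against 3572, 3503 and 3995 in the control libraries. Their exact 95% Poisson intervals were 770 to 883, 813 to 930 and 540 to 635 with OI, against 3456 to 3691, 3388 to 3621 and 3872 to 4121 in control, and cover counting error only. Counting alone gives an SD of 3.39% to 4.13% of the value in OI libraries and of 1.58% to 1.69% in control libraries. The spread between libraries was wider than that, at 5.97% of the mean with OI and 12% in control. OI libraries differed among themselves by 1.13-fold from lowest to highest and control libraries by 1.27-fold. On the log2(FPKM + 1) scale the residual SD of Tnnc1 was 0.14, and 59.4% of the tested genes had a larger one.

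The length behind the FPKM value was that of all annotated exons. With the gene length listed for Tnnc1 in the deposited tables, 721 bases, its values gave broken read numbers such as 571.398 in OI replicate 1 and 2473.98 in control replicate 1. With 1041 bases, the exons of all 3 transcripts, the reads were whole in all 6 libraries to within 0.01. Counted over the 721 bases of the coding transcript, the same reads correspond to 35.6, 33.3 and 31.6 FPKM with OI, against 203, 159 and 185 FPKM in control. The choice of length changes the level by 1.44 times in every library and leaves the ratio between groups as it was. The tables give 1 value per gene, so the 3 transcripts were not told apart.

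The Tnnc1 transcripts share few stretches with annotated transcripts of other genes. Of the 672 stretches of 50 bases in the coding transcript, 0 occurred on either strand in transcripts of 55449 other genes, and of its 691 stretches of 31 bases also 0. In the intron part kept by the retained-intron form, 68 of 320 stretches of 31 bases occurred in another gene, but 0 of 320 at 50 bases. Unspliced RNA of Nisch, which spans Tnnc1 on the other strand, was not searched. The strand setting of the counting was not given, so whether such RNA added reads to Tnnc1 was not tested. The nearest relative is Tnnc2, on chromosome 2, which was not analysed here. Its coding sequence matched that of Tnnc1 at 68.1% of aligned positions, 326 of 479, and the longest identical run was 21 bases. The most alike stretch of 60 coding bases is shown to let the reader see how far apart the paralogs are even there: 49 bases are identical, and capitals mark the positions where they differ. It covers coding bases 405 to 464 of Tnnc1 and 402 to 461 of Tnnc2, both written 5′ to 3′ on the coding strand.
Tnnc1: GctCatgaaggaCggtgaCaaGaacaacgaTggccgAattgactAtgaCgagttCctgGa
Tnnc2: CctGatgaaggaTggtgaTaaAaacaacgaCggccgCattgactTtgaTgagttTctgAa

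Set against the rest of the transcriptome analysed, the fall of Tnnc1 was among the largest. Only genes that reached 1 FPKM in 3 or more libraries were tested, which left 1737. Of these, 48 passed a limma adjusted p of 0.05, a share of 2.76%, and Tnnc1 was 1 of them. They comprised 28 genes that were lower with OI, a share of 1.61%, and 20 that were higher, a share of 1.15%. These counts moved with the settings: rescaling to a common sum left 1 lower and 6 higher, library totals without the reads of the genes analysed left 19 lower and 4 higher, and leaving out any 1 library left 15 to 24 in all. Among the tested genes, 12.5% had all OI libraries below all control libraries, and 0.748% passed the test with a fall of 2-fold or more. Tnnc1 had the second-largest fall on the log2(FPKM + 1) scale, after Gm27483, annotated as a miscellaneous RNA, at -2.47. The median log2 fold change of all tested genes was -0.02. Tnnc1 had the largest fall of the 310 protein-coding genes tested, of which 6 passed the threshold lower and 7 higher. The pseudocount of 1 shrinks the falls of genes at low levels, so this order is one of values on that scale and not of folds in FPKM. Over the alternatives the place of Tnnc1 among all genes tested ran from 1 to 24: it was 1 without OI replicate 1, 6 with a pseudocount of 0.1 FPKM, and 23 and 24 in the voom fits, which also tested more genes.

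**Figure D3:**
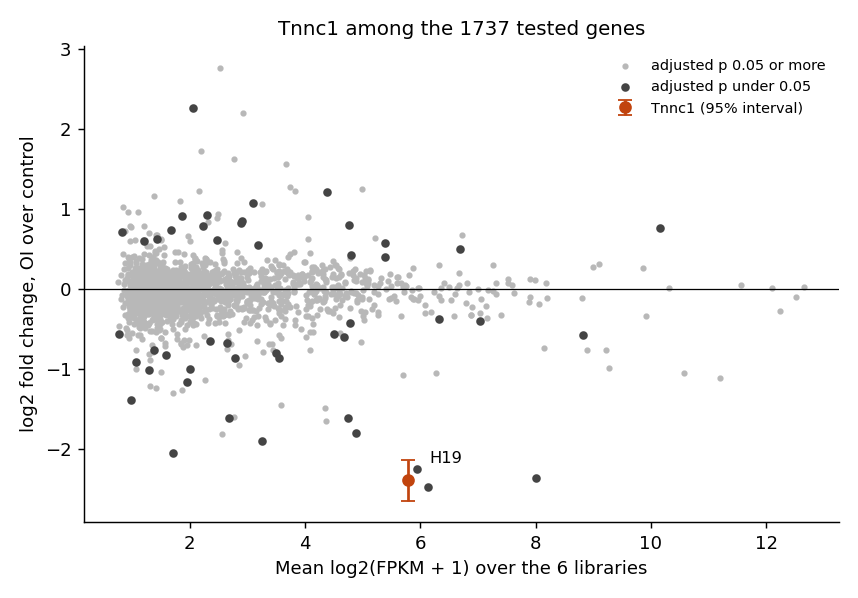
Log2 fold change, OI over control, of the 1737 tested genes against their mean log2(FPKM + 1) over the 6 libraries; dark points passed a limma adjusted p of 0.05, and the orange point is Tnnc1 with its 95% interval. Tnnc1, at -2.39, lies beside H19, at -2.25, far below the median of -0.02.

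Control replicate 1 stood apart from the other libraries in abundant non-coding RNA. AY036118, an rRNA-derived RNA, took 6.53% of its reads and between 0.0638% and 0.226% of those of the other 5 libraries. Genes analysed took 25.1% of the reads of control replicate 1 and 5.60% to 6.14% elsewhere. Tnnc1 was highest of all in this library, at 140 FPKM. Without it the log2 fold change was -2.31 (limma adjusted p = 0.000839), and leaving out each library in turn gave values from -2.48 to -2.31. When every library was rescaled to a common sum over the genes analysed, Tnnc1 in control replicate 1 dropped to 49.0 FPKM, beside 138 and 160 FPKM in the other control libraries and 28.8, 29.4 and 27.1 FPKM in OI libraries 1 to 3. The groups still did not overlap, but the log2 fold change was then -1.82, with the median of all tested genes at 0.35, and the call was lost (limma adjusted p = 0.631). This was the only one of 21 alternatives in which Tnnc1 did not pass the threshold, and it was lower with OI in all 21.

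**Figure D4:**
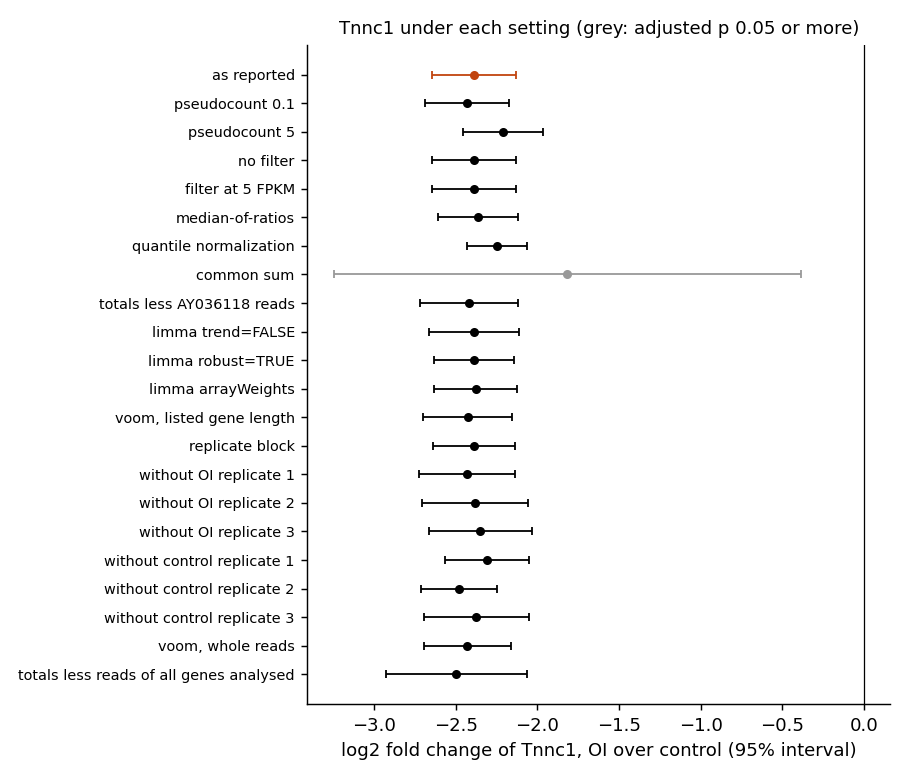
Log2 fold change of Tnnc1, OI over control, with its 95% interval, as reported (orange) and under the 21 alternatives; grey marks a limma adjusted p of 0.05 or more. All values lie between -2.50 and -1.82, and the grey one is the rescaling to a common sum, whose interval is the widest.

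In control cells Tnnc1 belonged to the most abundant protein-coding transcripts analysed, and with OI it ranked lower among them. FPKM is per length, so levels can be ranked between genes of a library, here with the length over all annotated exons. On the 721 bases of the coding transcript Tnnc1 would average 33.5 FPKM with OI and 182 FPKM in control. That control value is above the 162 FPKM of Gm11361, which ranks 5 in control on the length over all annotated exons. The rank of Tnnc1 could therefore move with the length used. The other genes were not put on another length, so ranks on such a length were not computed. Among 2468 protein-coding genes analysed, of which 978 were above 0 in any library, Tnnc1 ranked 41, 46 and 47 in the OI libraries. In the control libraries it ranked 7, 8 and 9. By group means it ranked 45 with OI and 8 in control. Next below it in control level was Rps27, a ribosomal protein gene, with 105 ± 19.6 FPKM with OI and 118 ± 14.6 FPKM in control (SD, n = 3 each). The levels of Tnnc1 and Rps27 overlapped between control libraries, whereas with OI every Tnnc1 value lay below every Rps27 value. Rps27 did not pass the threshold (log2 fold change -0.17, limma adjusted p = 0.625).

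Other protein-coding genes close to it in control level had smaller differences. Non-coding RNAs are not part of this comparison, and H19, a non-coding RNA at 133 FPKM in control, fell by 2.25 on the log2 scale. Gm11361, a predicted gene, averaged 157 ± 27.7 FPKM with OI and 162 ± 17.0 FPKM in control, with overlapping groups and a log2 fold change of -0.06. H1f0, the linker histone of non-dividing cells, fell by 0.40 on the log2 scale (limma adjusted p = 0.0268). Ccdc152 averaged 53.4 ± 10.4 FPKM with OI and 112 ± 26.6 FPKM in control, a log2 fold change of -1.04 that missed the threshold (limma adjusted p = 0.0603). Myl6, a myosin light chain of smooth muscle and non-muscle cells, averaged 84.4 ± 5.74 FPKM with OI and 106 ± 3.09 FPKM in control, which is -0.33 on the log2 scale and missed the threshold (limma adjusted p = 0.10). The SDs in these sentences are over 3 libraries per group.

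Of the genes on 7 muscle lists, Tnnc1 was the 1 that had values. The lists of troponins, other thin filament proteins, thick filament proteins, Z-disc and titin-associated proteins, calcium handling, slow-muscle and cardiac genes and myogenic transcription factors held 80 distinct genes. Of these, 1 was among the genes analysed, Tnnc1, which stands in the list of 8 troponin genes and in that of 15 slow-muscle and cardiac genes. The partners of its protein, troponin I and troponin T, were therefore not analysed here. Of 36 markers of myotubes, dividing myoblasts, fibroblasts, adipocytes, osteoblasts, smooth muscle and heart muscle, Tnnc1, a myotube marker, was likewise the only 1 with values, so the labelled cell type could not be checked against other defining markers.

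The authors' deposited annotation places Tnnc1 under several gene ontology terms and pathways, in most of which few other genes were tested. Many of those were pseudogenes or predicted genes. The terms were taken because they hold Tnnc1, so each count of genes past the threshold includes Tnnc1. Its molecular function, calcium ion binding, had 219 genes with values, of which 21 were tested and 2 passed the threshold, both lower with OI, beside 1.61% of all genes tested. They were Tnnc1 and Mylf-ps, a processed pseudogene of a fast myosin light chain, and the median log2 fold change over the 21 was -0.04, against -0.02 over all genes tested. Mylf-ps averaged 14.4 ± 1.55 FPKM with OI and 46.2 ± 7.96 FPKM in control (SD, n = 3 each), which is -1.61 on the log2 scale (limma adjusted p = 0.00282). It was named after its values were seen, and whether its reads came from the parent gene was not tested. The KEGG pathway of cardiac muscle contraction had 9 tested genes with a median of -0.05, and Tnnc1 was the 1 that passed, beside 2.76% of all genes tested. The others were Cox5a and predicted genes, pseudogenes among them. No other named contractile gene was tested there, so the median does not show what contractile genes did. Under hypertrophic and dilated cardiomyopathy the same 3 genes were tested, so these pathways give 1 observation. Tnnc1 and Itga10, an integrin subunit (-0.76 on the log2 scale, limma adjusted p = 0.0268), passed, beside 2.76% of all genes tested. The third, a predicted gene, did not pass. Cox5a, a subunit of cytochrome c oxidase in the pathway of cardiac muscle contraction, had 28.2 ± 2.81 FPKM with OI and 29.3 ± 2.22 FPKM in control (SD, n = 3 each), with overlapping groups.

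Genes analysed around Tnnc1 on chromosome 14 had values too low to be tested. Within 500 kb of it lie 12 other such genes, antisense, intergenic and small RNAs, pseudogenes and the protein-coding gene Hacl1. For 5 of them, Hacl1 included, the tables list 0 in all 6 libraries, as they do for many protein-coding genes (978 of 2468 were above 0 in any library), so a listed 0 does not show that a gene was off. The highest value was 1.27 FPKM, of the small nucleolar RNA gene Gm24916 in control replicate 3. None of the 12 passed the filter, and Nisch and Sema3g were not analysed here.

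Over the 6 libraries, H19 had the pattern most like that of Tnnc1, but not without control replicate 1. H19 is an imprinted long non-coding RNA, abundant in embryonic muscle and switched on as myoblasts differentiate. Likeness was Pearson's r of log2(FPKM + 1) over the 6 libraries. It was taken over 179 genes that averaged at least 5 FPKM in one of the groups and are not predicted models by a rule on symbols. It describes these libraries, since genes share the same libraries and any gene that differs between the groups scores high: of the other 1736 tested genes, 81 had r above 0.9 and 60 had r below -0.9. The OI libraries had 24.1, 32.1 and 25.9 FPKM of H19, against 136, 131 and 131 FPKM in control, and r was 0.990. Without control replicate 1 it was 0.988, below H1f0 and Mir22hg, both at 0.993. The levels of the pair are close, and H19 was likewise low in every OI library. Its log2 fold change was -2.25 (limma adjusted p = 0.00023).

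The ratio of Tnnc1 to H19, which does not depend on library scaling, was 1.02, 0.718 and 0.845 in the OI libraries, against 1.03, 0.841 and 0.979 in control. The groups overlapped. The mean log2 ratio was -0.23 ± 0.26 with OI and -0.08 ± 0.15 in control (SD, n = 3 each), a difference of -0.15 with p = 0.5 in the two-sided exact permutation test, whose smallest possible value here is 0.1. A test of 3 against 3 does not show that the ratios are equal.

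Predicted gene models were left out by rule, and 15 of them had an r above that of the last gene named here. The other named genes most like Tnnc1 were AC157554.3 (r = 0.986), H1f0 (0.981), Mir22hg (0.979), Vkorc1 (0.979) and Snhg12 (0.970). AC157554.3, an antisense RNA, had 0.390, 0.778 and 0.671 FPKM in the OI libraries, against 5.45, 5.14 and 6.48 FPKM in control, and fell by 2.05 on the log2 scale (limma adjusted p = 0.000775). All its OI values lie below 1 FPKM, so it passed the filter through the control group alone, and its fall on the FPKM + 1 scale understates that in FPKM and is not comparable with that of Tnnc1. Mir22hg, from which the microRNA Mir22 is processed, had 23.0, 23.4 and 21.9 FPKM with OI, against 29.8, 30.5 and 32.1 FPKM in control, and fell by 0.42 on the log2 scale (limma adjusted p = 0.0302). Vkorc1, an enzyme of the vitamin K cycle, differed by -0.28 on that scale (limma adjusted p = 0.0959). Snhg12, a small nucleolar RNA host gene, differed by -0.30 (limma adjusted p = 0.104). In all 5 the OI libraries lay below the control libraries, beside 12.5% of all genes tested. They were picked for a high r with Tnnc1, which favours such separation, so this is not a separate result. The differences of H1f0, Mir22hg, Vkorc1 and Snhg12 were a fraction of that of Tnnc1. A high r here reflects mainly the gap between the groups, and does not tell how large it is.

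**Figure D5:**
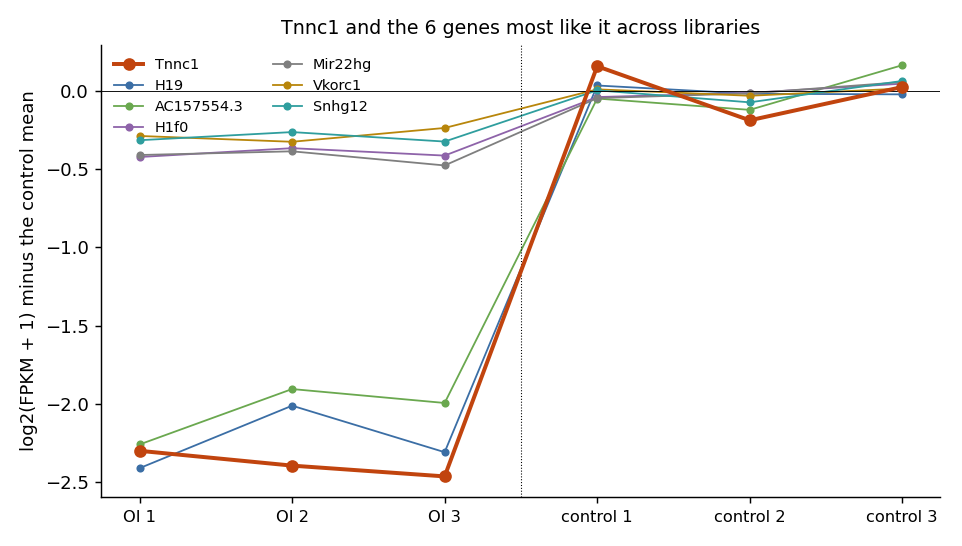
Level of Tnnc1 and of the 6 genes most like it in each library, as log2(FPKM + 1) minus the gene's mean over the control libraries; lines join the points of 1 gene, and the order of libraries within a group has no meaning. In the OI libraries Tnnc1, H19 and AC157554.3 lie near 2 units or more below their control means, while the other 4 lie within 1 unit of theirs.

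Within groups, where the difference between OI and control plays no part, the order of libraries was not shared by Tnnc1 and H19. Tnnc1 was highest in OI replicate 1 and control replicate 1, at 0.09 and 0.16 above its group means on the log2(FPKM + 1) scale, and lowest in OI replicate 3 and control replicate 2, at -0.08 and -0.19. H19 was highest in OI replicate 2 and control replicate 1. With 3 libraries per group these orders are a description only.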

How the data were processed

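The 6 libraries analysed were made from C2C12 cells on day 7, 3 with OI and 3 control. The submitters' processing notes name StringTie 1.3.3b, HISAT2 2.1.0 and cutadapt 2.7, and the build mm10. The strand setting and the annotation were not given in the sources used here. The authors deposited FPKM, 1 table per library with 27943 rows; 1 broken row was left out, and a large block of Ensembl identifiers was not analysed here. The length in the deposited tables is another quantity, the listed gene length in bases, and served only to recover read numbers.

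Library sizes were recovered from the FPKM steps of 15313 genes of 1 exon: 32122000, 36274000 and 25684000 with OI and 24441000, 30522000 and 29993000 in control, to the nearest 1000. With the union of annotated exons in GENCODE M21 (27864 identifiers matched), 98.3% to 98.5% of values above 0 were whole reads within 0.01, against 84.5% to 86.0% with the listed length.

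The test was limma 3.58.1 (R 4.3.3) on log2(FPKM + 1), trend=TRUE, two-sided, no replicate block. The adjustment was Benjamini-Hochberg over all 1737 genes tested, threshold 0.05. The log2 scale with a pseudocount understates changes of low genes. Alternatives were pseudocounts of 0.1 and 5, other filters, scalings and limma options, voom on recovered reads, the replicate block and leaving out each library; voom on whole reads over all exons and library totals less the reads of all genes analysed were added after seeing the data.

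Genes were named by a rule: Tnnc1, H19, AY036118, genes near Tnnc1 with a mean of 1 FPKM or more (none), list members with values, the 6 most alike genes, and the 3 protein-coding genes just above and just below Tnnc1 in control level. Of these, 1 gene is not reported here. Hacl1 and Gm24916, Gm27483, Cox5a, Itga10 and Mylf-ps are outside it and were chosen after their values were seen. The gene and the lists were chosen with earlier results of these data known. Sequences and alignments used Biopython 1.88, and tables and figures used Matplotlib 3.10.9, SciPy 1.17.1 and pandas 2.3.3 in Python 3.11.15.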

Additional observations from a re-analysis of the deposited data

How the results depend on the processing

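Tnnc1 was lower with OI under all 21 alternatives and passed a limma adjusted p of 0.05 in 20. The exception was rescaling to a common sum over the genes analysed, which gave -1.82 on the log2 scale (limma adjusted p = 0.631, against 6.23e-05 to 0.00664 in the others); control replicate 1, with 25.1% of its reads in these genes, was scaled down most. Leaving out each library in turn gave -2.48 to -2.31 (limma adjusted p from 0.000677 to 0.00224). Subtracting the reads of all genes analysed from the library totals gave -2.50, with the median of all tested genes at -0.11.

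The number of genes past the threshold depended more on the settings than Tnnc1 did. Against 48 genes, 20 higher and 28 lower with OI, it was 14 (3 higher, 11 lower) with no filter, 7 (6 higher, 1 lower) with the common sum and 23 (4 higher) with the reduced library totals. Leaving out each library gave 15 to 24 genes, 2 to 10 higher and 12 to 15 lower; no filter tests more genes and these fits hold fewer libraries, and otherwise the cause was not tested. With the replicate number as a block it was 17 (3 higher, 14 lower), and Tnnc1 stayed at -2.39 (limma adjusted p = 0.00664). Deviations of same-numbered libraries correlated at 0.05, 0.14 and -0.08, so the numbers were not taken to pair the samples.

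Of the 6 genes most like Tnnc1, 5 were shared with untransformed FPKM and 5 without control replicate 1. The level rank of 8 in control became 6 among protein-coding genes without predicted models, and the ratio to H19 differed by -0.14 on FPKM + 1. Depth limits little for Tnnc1, which had 586 reads or more in every library. The limits are 3 libraries per group of unstated origin, 1 time and 1 dose, 1 value per gene, and partners of troponin C that were not analysed here.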
